A study of Mus musculus with 36 samples.

Results

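S1pr1, S1pr4, Ccr7, Il7r, Il6ra and Nsg2 are 6 genes read here as markers of lymphocytes that recirculate or persist. They were taken by symbol, 6 of the 18193 genes measured, and are covered by 9 of 34945 probe sets that carry 1 gene symbol. A probe set is the group of short DNA probes that reads 1 transcript on the array. Where a gene had several, its brightest set on average over the 36 arrays stands for it and the other sets are given as a check: Il7r, Il6ra and Nsg2 had 2 sets each, the other 3 genes 1. Levels are the deposited log2 values, so a difference of 1 is a doubling. Their zero point is not stated, and no gene's level is set against another's.

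The arrays measured CD8 T cells from OT-I mice, whose T cell receptor recognises an ovalbumin peptide. The cells carried a short hairpin RNA and had been moved into mice with B16 melanoma tumors before they were recovered from spleen or tumor. The hairpin was directed at LacZ, a bacterial gene that serves as control, or at Ppp2r2d, Egr2, Ptpn2, Arhgap5 or Alk, mouse genes that the study links to T cell numbers in tumors relative to spleens. Each of the 6 transductions has 3 arrays labelled spleen and 3 labelled tumor, 12 groups in all, and all groups share the OT-I cells, the transfer and the tumor-bearing host. The labels give neither the age or sex of the mice nor the time between transfer and harvest, name no hairpin sequence, and do not say whether a group's 3 arrays are 3 animals. A p here therefore reflects array-to-array spread, which may be technical.

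Sphingosine-1-phosphate (S1P) is abundant in blood and lymph, and T cells leave lymphoid organs by following it with the receptor S1PR1. CCR7 works the other way and brings T cells into lymph nodes along the chemokines CCL19 and CCL21. The interleukin-7 receptor alpha chain (Il7r) keeps naive and memory T cells alive, and the interleukin-6 receptor alpha chain (Il6ra) pairs with gp130 to carry the IL-6 signal. T cells lower these receptors, to different degrees, after strong antigen stimulation. S1pr4 is a second S1P receptor of lymphocytes, and Nsg2 encodes a vesicle membrane protein best known from neurons that is not itself a receptor.

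The tissue labels were checked against marker genes before the levels were read. The 10 measured T cell identity genes had a mean level between 5.52 and 6.46 on arrays labelled spleen and between 4.91 and 6.74 on arrays labelled tumor. The mean of 11 melanocyte genes was 2.50 to 4.19 on arrays labelled spleen and -1.23 to -0.20 on arrays labelled tumor, and the mean of 13 macrophage and myeloid genes was 1.51 to 4.20 and -2.07 to -0.54. The melanin synthesis genes Dct (median 5.04 against -2.10) and Tyrp1 (5.44 against -2.17) and the complement gene C1qb (4.83 against -2.40) did not overlap between the labels. B cell genes, mean of 9, ran from -1.29 to 0.40 labelled spleen and from -0.41 to 0.98 labelled tumor. In the mean of 6 transductions 8 of the 9 were called higher labelled tumor and 0 lower. After quantile normalization or cyclic loess 7 were higher and 1 lower. Cd79b rose by 1.56, Cd22 by 1.35 and Ighm by 0.99 (median 4.16 against 5.14), and Ms4a1 had a median of -2.90 and -1.49. The mean of 4 measured erythroid genes was -2.06 to -0.59 labelled spleen and -1.34 to 2.98 labelled tumor: Car1 (3.53) and Car2 (2.18), carbonic anhydrases, were called higher labelled tumor in the mean of 6 transductions, and the globin gene Hba-a1 was not, at 0.30 (limma adjusted p = 0.101; -0.07 after quantile normalization). Tumor and macrophage genes were thus high on the arrays labelled spleen, opposite to what the labels say, and the words "labelled spleen" and "labelled tumor" are used throughout. The part of other cells in the differences reported here was not tested, and in bulk RNA fewer cells of a type and less RNA per cell cannot be told apart.

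One array stood apart. Ptpn2 array 1 labelled tumor had a highest correlation with any other array of 0.905 and a Gapdh 3′ minus 5′ probe difference, a sign of RNA breakdown, of 2.94 against at most 1.39 elsewhere. That difference moved with the labels: it was 0.857 to 2.94 on the 18 arrays labelled tumor, 0.246 to 0.828 on the 15 hairpin arrays labelled spleen and 0.829 to 1.39 on the 3 LacZ arrays labelled spleen. Its part in the differences between labels was not tested. The hairpin target genes themselves were lower than in LacZ in 8 of 10 comparisons, from -1.37 to 1.13, and 1 passed the test, Ppp2r2d on arrays labelled spleen (limma, adjusted p = 0.0286). Array medians lay between -0.50 and -0.23.

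Promoter sequence shows what precedes the transcripts of the genes described here. A RefSeq table (GRCm38.p6, from 250 bases before to 50 after a start) held 4 of the 6 genes, in 5 entries. They were searched on both strands for CACCC, a core letter run of KLF factor sites, for GTAAACA, that of FOXO factors, and for AGGAAGT, that of ETS factors, and matches are in capitals, with no overlap among them. The KLF, FOXO and ETS families include factors known to act on S1pr1 and Il7r in T cells, and the letters were chosen with the promoters in view. Il7r (chr15:9529827-9530126, minus strand) and Il6ra (chr3:89913147-89913446, minus strand) are shown because both genes separated the labels completely, and each held 1 ETS run:
Il7r: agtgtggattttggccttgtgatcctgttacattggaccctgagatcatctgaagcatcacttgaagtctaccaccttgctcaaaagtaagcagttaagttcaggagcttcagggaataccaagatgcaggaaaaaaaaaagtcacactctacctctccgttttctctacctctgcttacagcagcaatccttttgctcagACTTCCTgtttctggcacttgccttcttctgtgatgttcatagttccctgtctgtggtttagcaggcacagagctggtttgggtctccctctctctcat
Il6ra: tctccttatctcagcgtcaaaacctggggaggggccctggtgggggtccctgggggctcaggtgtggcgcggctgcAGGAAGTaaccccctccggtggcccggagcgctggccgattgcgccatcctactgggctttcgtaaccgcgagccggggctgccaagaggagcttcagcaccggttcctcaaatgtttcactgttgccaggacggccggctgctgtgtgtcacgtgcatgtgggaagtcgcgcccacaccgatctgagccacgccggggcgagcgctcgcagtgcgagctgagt
Nsg2, which separated the labels too, had an entry without a match and one with 3 KLF runs (chr11:32000450-32000749, plus strand). S1pr4, which differed least among the genes with an entry, held 1 KLF run (chr10:81500088-81500387, minus strand):
Nsg2: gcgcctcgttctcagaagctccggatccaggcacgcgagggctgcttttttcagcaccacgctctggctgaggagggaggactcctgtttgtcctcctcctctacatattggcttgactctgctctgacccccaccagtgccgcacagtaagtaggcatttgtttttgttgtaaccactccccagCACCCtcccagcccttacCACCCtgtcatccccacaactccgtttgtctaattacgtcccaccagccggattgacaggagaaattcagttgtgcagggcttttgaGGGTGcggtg
S1pr4: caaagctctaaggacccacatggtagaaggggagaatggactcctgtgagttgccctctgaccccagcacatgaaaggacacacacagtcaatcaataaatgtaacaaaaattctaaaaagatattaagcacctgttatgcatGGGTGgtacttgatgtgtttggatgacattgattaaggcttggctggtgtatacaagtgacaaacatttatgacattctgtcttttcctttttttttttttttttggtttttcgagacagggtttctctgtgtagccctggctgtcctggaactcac
Of 32851 promoter windows of this length 57.5% held CACCC, 9.35% held AGGAAGT and 3.65% held GTAAACA, which none of the 5 entries had. A match describes the letters only.

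Of the 6 genes, S1pr1, Il7r, Il6ra and Nsg2 were higher on arrays labelled tumor than on arrays labelled spleen in all 6 transductions, S1pr4 in the Alk transduction on the deposited scale and in Arhgap5 too under 4 alternatives, and Ccr7 in none. That is 25 of 36 tests at an adjusted p under 0.05 (limma, Benjamini-Hochberg over 18193 genes), all of them higher. The share of all genes called higher was 6.31% in LacZ, 8.1% in Ppp2r2d, 10.5% in Egr2, 24.1% in Ptpn2, 10.7% in Arhgap5 and 33.2% in Alk, against 4 of the 6 genes in each of the first 5 and 5 of 6 in Alk. Over the whole array 434 genes, 2.39%, were called higher in every transduction. The deposited scale shifted between groups: the median difference of all genes ran from -0.48 in LacZ to 0.34 in Alk and was 0.04 to 0.08 after quantile normalization. Genes called higher made up 25.0% to 62.4% of the calls in the 6 comparisons as deposited, 50.9% to 53.8% after quantile normalization and 44.4% to 47.7% after cyclic loess. All 25 calls held under both scalings.

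**Figure D1:**
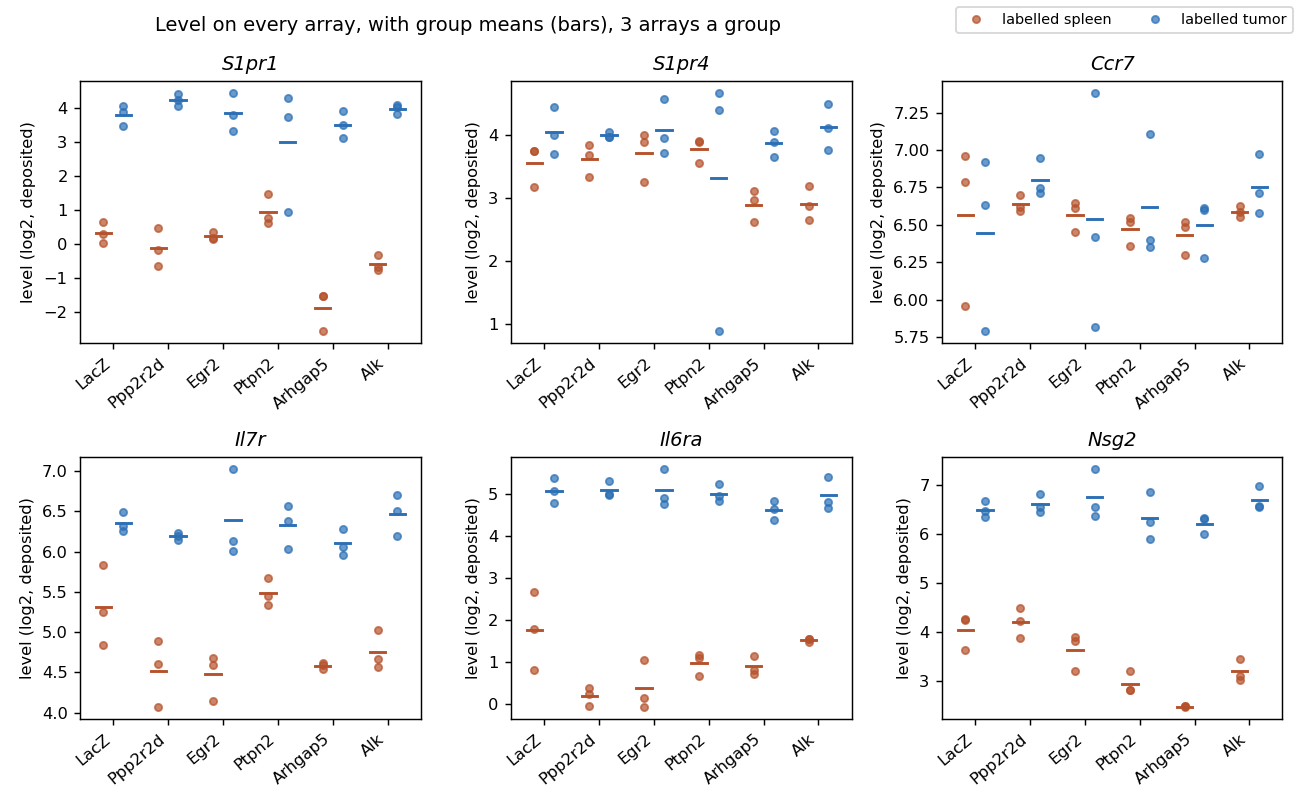
Level of each gene (log2, deposited scale, own axis per gene) on all 36 arrays by transduction, arrays labelled spleen in brown and labelled tumor in blue, with a bar at the mean of 3 arrays. Il7r, Il6ra and Nsg2 do not overlap between the labels, S1pr1 overlaps through Ptpn2 array 1 labelled tumor at 0.94, S1pr4 overlaps in several groups, and Ccr7 lies between 5.79 and 7.38 under both.

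S1pr1, the receptor that T cells use to leave lymphoid tissue, gave one of the widest separations. In the LacZ control the arrays labelled spleen (probe set 1423571_at) read 0.65, 0.29 and 0.02 and the arrays labelled tumor 3.88, 3.47 and 4.05. Over all transductions the lowest, median and highest values were -2.55, 0.09 and 1.47 on the 18 arrays labelled spleen, and 0.94, 3.89 and 4.43 on the 18 labelled tumor. All arrays labelled tumor but one, at 3.12 or above, exceeded the highest array labelled spleen; the exception was Ptpn2 array 1. S1pr1 was below the array's own median in 6 of the 18 arrays labelled spleen and in 0 labelled tumor. The difference was 3.48 ± 0.49 in LacZ (SE, n = 3 arrays a group, 11.1-fold, limma adjusted p = 1.46e-06). It was 4.35 in Ppp2r2d, 3.61 in Egr2, 4.55 in Alk and 5.37 in Arhgap5, with the same SE. In Arhgap5 all 3 arrays labelled spleen lay below their array's median. So did Alk arrays 2 (-0.68) and 3 (-0.74) and Ppp2r2d array 3 (-0.64), while Alk array 1 (-0.32) lay at its median. The size of the differences in Arhgap5 and Alk, and in part in Ppp2r2d, thus rests on signal not shown to be above background. Ptpn2 gave the smallest, 2.04 (adjusted p = 0.00139): its arrays labelled tumor read 0.94, 3.74 and 4.29, the first of them the array that stood apart, and the difference was 3.06 without it. In a fit of the Ptpn2 arrays alone its adjusted p was 0.11.

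The order of the 12 groups put the 6 labelled tumor first, from Ppp2r2d at 4.23 ± 0.18 (SD, n = 3) to Ptpn2 at 2.99 ± 1.79. The labelled spleen groups followed, from Ptpn2 at 0.95 ± 0.46 to Arhgap5 at -1.86 ± 0.59. Neighbours in this order overlapped in 10 of 11 pairs, and only Arhgap5 labelled spleen stood clear of the group above it. Its 3 arrays, at -1.52, -2.55 and -1.53, were the lowest S1pr1 values of the series.

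S1pr4, whose product also binds S1P, changed little. The LacZ arrays read 3.74, 3.74 and 3.17 labelled spleen and 4.44, 3.70 and 3.99 labelled tumor, and the groups overlapped. Across transductions the arrays labelled spleen ran from 2.61 through a median of 3.44 to 4.00. Those labelled tumor ran from 0.89 through 3.98 to 4.66, the lowest being Ptpn2 array 1, with all others at 3.65 or above. The difference was called in Alk (1.22 ± 0.51, SE, 2.33-fold, limma adjusted p = 0.0451), where arrays read 3.18, 2.88 and 2.64 against 3.76, 4.11 and 4.49. Leaving out any of these 6 arrays ended that call, with adjusted p from 0.0577 to 0.133. Ptpn2 was the 1 transduction with a lower mean labelled tumor, at -0.47 (adjusted p = 0.442), and this turned to 0.75 (adjusted p = 0.0494) without its array 1 and to 0.07 after quantile normalization. The other differences were 0.36 to 0.97. The last, in Arhgap5, was not called over all arrays (limma adjusted p = 0.151) but was called at 1.45 after cyclic loess (0.0105), 1.55 after quantile normalization (0.00861), 0.97 in its 6 arrays alone (0.00331) and 0.99 with array weights (0.000429). Apart from that, in no neighbouring pair of the 12 groups were the arrays apart. The mean over the 6 transductions was 0.49 ± 0.21 (limma adjusted p = 0.037), a call that ended on leaving out any of 12 single arrays (adjusted p 0.0525 to 0.0755) and without the 3 arrays whose lowest values were unusually high (0.35, 0.106). It was 0.89 after quantile normalization (0.000171) and 0.85 after cyclic loess (0.000195).

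Ccr7, the receptor for lymph node entry, did not separate the labels. Its LacZ arrays read 6.78, 6.96 and 5.96 labelled spleen and 5.79, 6.63 and 6.92 labelled tumor, each group spanning nearly the range of the other. Differences ran from -0.12 in LacZ to 0.17 in Alk with an SE of 0.31, and adjusted p from 0.656 to 0.946. The sign in LacZ flipped to 0.36 after quantile normalization. The mean over transductions was 0.06, with a 95% interval from -0.19 to 0.32 (limma adjusted p = 0.647), so a change of the size seen for S1pr1 lies outside it. After cyclic loess this mean was 0.22 with an adjusted p of 0.0174. All 11 neighbouring pairs in the order of the groups overlapped, and group means spanned 6.43 to 6.80.

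Il7r, whose product receives the survival signal of IL-7, separated the labels with a smaller difference. LacZ arrays (probe set 1448575_at) read 5.25, 5.83 and 4.84 labelled spleen and 6.25, 6.31 and 6.49 labelled tumor. Over 18 arrays each, values ran from 4.07 through 4.67 to 5.83 and from 5.96 through 6.24 to 7.03, so that every array labelled tumor was above every array labelled spleen. The difference was 1.05 in LacZ, 1.67 in Ppp2r2d, 1.92 in Egr2, 1.52 in Arhgap5 and 1.72 in Alk (SE 0.27), 2.06-fold to 3.77-fold. Ptpn2 gave 0.84 (1.79-fold, limma adjusted p = 0.0129), which had an adjusted p of 0.0556 without Ptpn2 array 1 labelled tumor, 0.065 with array weights and, as the mean of its probe sets (0.43), 0.181. Fits of a single transduction's 6 arrays did not call Il7r in LacZ (adjusted p = 0.183) or Ptpn2 (0.0856). A second probe set, 1448576_at, differed by 1.50 to 2.49 in the other 5 transductions and by 0.02 in Ptpn2 (adjusted p = 0.964). In that set the Ptpn2 arrays read 2.92, 2.99 and 3.27 labelled spleen against 2.32, 3.82 and 3.11 labelled tumor, the first being the array that stood apart. Without it the set gave 0.40 (limma adjusted p = 0.396), an alternative added after seeing the data.

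Il6ra, the ligand-binding chain of the IL-6 receptor, had a mean difference of 4.01 ± 0.14 (SE, 16.1-fold, limma adjusted p = 5.81e-22). LacZ arrays (1452416_at) read 2.67, 0.82 and 1.78 labelled spleen and 5.37, 4.77 and 5.07 labelled tumor. The 18 arrays labelled spleen ran from -0.06 through 0.93 to 2.67 and the 18 labelled tumor from 4.37 through 4.92 to 5.59, with a clear gap between them. By transduction the difference was 3.31 in LacZ, 4.89 in Ppp2r2d (29.7-fold), 4.70 in Egr2, 4.01 in Ptpn2, 3.71 in Arhgap5 and 3.43 in Alk (SE 0.33). The second probe set, 1422270_a_at, was below the array median on 17 of 18 arrays labelled spleen, and its mean difference was 2.45 ± 0.16.

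Nsg2, the neuronal vesicle gene, was as cleanly separated as Il6ra. LacZ arrays (1416107_at) read 4.26, 4.27 and 3.63 labelled spleen and 6.48, 6.35 and 6.67 labelled tumor. Across transductions values ran from 2.48 through 3.33 to 4.50 and from 5.91 through 6.52 to 7.34, without overlap. The difference was 2.45 in LacZ, 2.41 in Ppp2r2d, 3.11 in Egr2, 3.39 in Ptpn2, 3.73 in Arhgap5 (13.3-fold) and 3.51 in Alk (SE 0.27). The second set, 1456685_at, gave a mean of 3.75 ± 0.12 against 3.10 ± 0.11 for the first. Ranges of 18 arrays against 18 were apart in the higher direction for 246 genes, 1.35% of all, and Il7r, Il6ra and Nsg2 are among them.

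**Figure D2:**
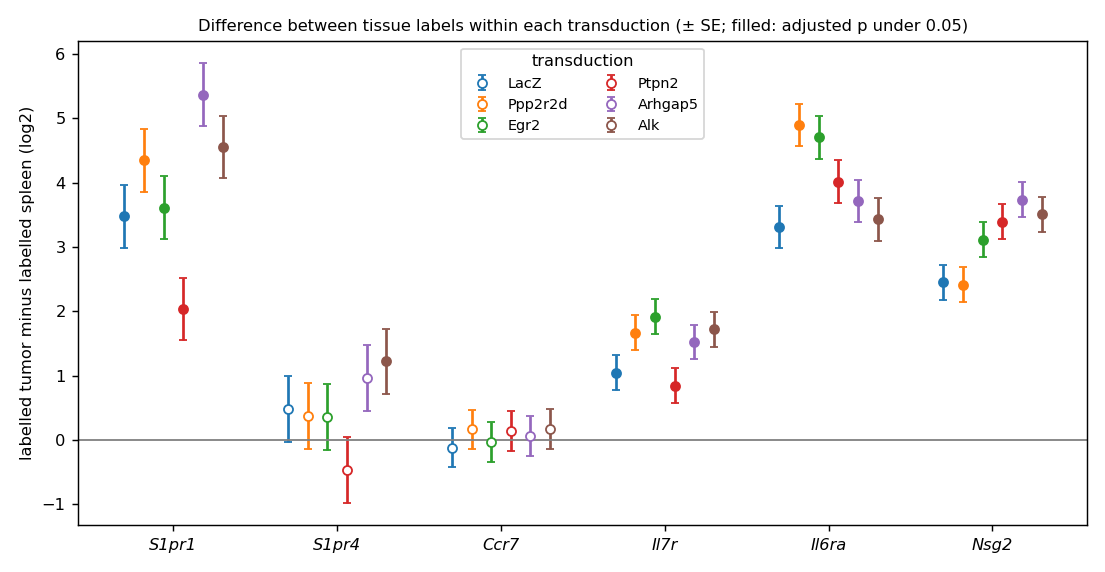
Difference labelled tumor minus labelled spleen (log2, ± SE, 3 arrays a group) for each gene and transduction, filled where the limma adjusted p is under 0.05. S1pr1 runs from 2.04 in Ptpn2 to 5.37 in Arhgap5, Il6ra from 3.31 to 4.89 and Nsg2 from 2.41 to 3.73, and all 6 Ccr7 values lie between -0.12 and 0.17.

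For S1pr1, Nsg2, Il6ra and Il7r the spread among transductions lay mainly on the side labelled spleen. S1pr1 group means spanned 2.81 over the 6 labelled spleen groups and 1.24 over the 6 labelled tumor, the latter widened by Ptpn2 array 1. The spans were 1.72 against 0.54 for Nsg2, 1.57 against 0.48 for Il6ra and 1.01 against 0.37 for Il7r. Within groups the pooled SD labelled spleen and labelled tumor was 0.28 and 0.33 for Nsg2, 0.31 and 0.29 for Il7r, 0.48 and 0.31 for Il6ra, and 0.41 and 0.80 for S1pr1. For S1pr4 the spans labelled spleen and labelled tumor were 0.88 and 0.81, the latter including Ptpn2 array 1, and for Ccr7 they were 0.20 and 0.36. These are ranges of 6 means, and the difference between the spans was not tested.

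Each hairpin was then set against LacZ under the same label, which asks whether a hairpin went with a change in these genes. On arrays labelled spleen 5 of 30 tests passed, all lower than LacZ, and 12 had an unadjusted p under 0.05. The share of all genes called lower was 6.68% in Ppp2r2d, 1.64% in Egr2, 6.21% in Ptpn2, 5.86% in Arhgap5 and 3.77% in Alk. Against these, 1 of the 6 genes was called in each of Ppp2r2d, Egr2 and Ptpn2, 2 in Arhgap5 and 0 in Alk. The 5 comparisons share the LacZ arrays. The median of all genes was below LacZ by -0.24 to -0.15 on the deposited scale and -0.02 to 0.02 after quantile normalization, where 13 member tests passed. Genes called higher were 34.1% to 49.3% of the calls as deposited and 58.8% to 68.4% after quantile normalization.

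Nsg2 differed from LacZ with 2 hairpins. Arrays labelled spleen with the Arhgap5 hairpin read 2.48, 2.49 and 2.48, below the lowest LacZ array at 3.63. The difference was -1.57 ± 0.27 (SE, 2.96-fold lower, limma adjusted p = 0.000737), and the second probe set fell by 2.46 (adjusted p = 1.02e-05). With Ptpn2 the arrays read 2.82, 3.20 and 2.82, a difference of -1.10 (adjusted p = 0.0118) that was not called without LacZ array 2 (0.0515), Ptpn2 array 1 (0.0634) or Ptpn2 array 3 (0.051). With Alk they read 3.46, 3.11 and 3.03, a difference of -0.85 that missed the threshold (adjusted p = 0.051) while the second set passed it at -1.23 (0.0149). Ppp2r2d and Egr2 gave 0.15 and -0.40, with arrays that overlapped LacZ. The order labelled spleen was Ppp2r2d 4.20, LacZ 4.05, Egr2 3.65, Alk 3.20, Ptpn2 2.95 and Arhgap5 2.48, and only Arhgap5 stood clear of its neighbour.

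Il6ra was lower with the Ppp2r2d and Egr2 hairpins. The Ppp2r2d arrays read 0.37, -0.03 and 0.24, all below the 3 LacZ arrays, for a difference of -1.57 ± 0.33 (SE, limma adjusted p = 0.00222). In a fit of these 6 arrays alone its adjusted p was 0.056. The Egr2 arrays read -0.06, 1.04 and 0.15, which overlap the LacZ array at 0.82, for a difference of -1.38 (adjusted p = 0.0208). The LacZ arrays were themselves far apart, and the Egr2 call ended without LacZ array 1 (-0.92, adjusted p = 0.093), Egr2 array 1 (0.127) or Egr2 array 3 (0.08). The second Il6ra set did not call either hairpin, at -0.66 (0.238) and -0.55 (0.401). Without LacZ array 2 the Ptpn2 and Arhgap5 differences, -0.78 and -0.86 over all arrays, passed at -1.25 (0.0206) and -1.33 (0.0147). With all arrays kept they passed after cyclic loess (-1.10, 0.0372 and -1.05, 0.0398) and quantile normalization (-1.18, 0.00563 and -1.20, 0.00372). Each stayed uncalled in 11 of 16 alternatives.

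S1pr1 fell with the Arhgap5 hairpin by 2.19 ± 0.49 on the log2 scale (SE, limma adjusted p = 0.00583), with no overlap between the Arhgap5 and LacZ arrays. The Arhgap5 arrays were all below their array's median, which leaves the size of the fall uncertain. The other 4 hairpins gave -0.91 to 0.63 and were not called, although the Alk arrays, at most -0.32, all lay below the LacZ arrays, at least 0.02. Il7r differed from LacZ by -0.79, -0.83, -0.73 and -0.56 with Ppp2r2d, Egr2, Arhgap5 and Alk labelled spleen, none of them called (adjusted p = 0.0517, 0.0781, 0.0818 and 0.184). LacZ array 3, the lowest of the LacZ Il7r values at 4.84, bears on this: without it the first 3 of these passed, at -1.02, -1.07 and -0.96 (0.0203, 0.0372 and 0.0303). Scaling bears on it too. With all arrays kept, quantile normalization called all 4, at -0.79, -0.84, -0.69 and -0.52 (0.00127, 0.00317, 0.00729 and 0.0453). Cyclic loess called Ppp2r2d (-0.62, 0.0323) and Egr2 (-0.72, 0.0319). In order, the differences stayed uncalled in 11, 13, 13 and 15 of 16 alternatives. S1pr4 differences ran from -0.66 to 0.22 and Ccr7 differences from -0.13 to 0.07, with no call. The S1pr4 arrays with Arhgap5, at most 3.10, lay below the lowest LacZ array, at 3.17. All groups share 1 estimate of a gene's spread, and Ptpn2 array 1 labelled tumor widens it for S1pr1 and S1pr4. For S1pr4 the pooled SD was 0.29 labelled spleen and 0.91 labelled tumor. The part of that array in these missing calls was not tested for each gene.

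Marker genes of other cells also moved among these arrays. The macrophage and myeloid mean labelled spleen was 1.82 in LacZ, 1.97 in Ppp2r2d, 2.64 in Egr2, 2.52 in Ptpn2, 2.61 in Arhgap5 and 3.74 in Alk. The melanocyte mean ran from 2.89 in Ppp2r2d to 4.05 in Alk with LacZ at 2.95, and the B cell mean was 0.03 in LacZ against -0.98 to -0.55 with the hairpins. T cell identity genes ran from 5.73 to 6.06. The 3 LacZ arrays labelled spleen also had the lowest of the arrays' highest correlations after Ptpn2 array 1, 0.968 to 0.975, and a Gapdh 3′ minus 5′ difference of 0.829 to 1.39 against 0.246 to 0.828 with the hairpins. The part of these shifts in the differences from LacZ was not tested.

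Under the label tumor none of 30 tests against LacZ passed in limma, with differences from -0.81 to 0.43, a lowest adjusted p of 0.319 and 0 at an unadjusted p under 0.05. Of all genes called, 86.7% in Ppp2r2d and 84.2% in Ptpn2 were higher as deposited, and 60.2% and 64.2% after quantile normalization. Few genes of any kind passed there: 0.995% in Ppp2r2d, 0.0275% in Egr2, 0.764% in Ptpn2, 0.368% in Arhgap5 and 0.0055% in Alk. The largest difference was S1pr1 in Ptpn2, -0.81, which rests on array 1 at 0.94. Il6ra with Arhgap5 read 4.82, 4.63 and 4.37 against 5.37, 4.77 and 5.07 in LacZ, a difference of -0.46 (adjusted p = 1).

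**Figure D3:**
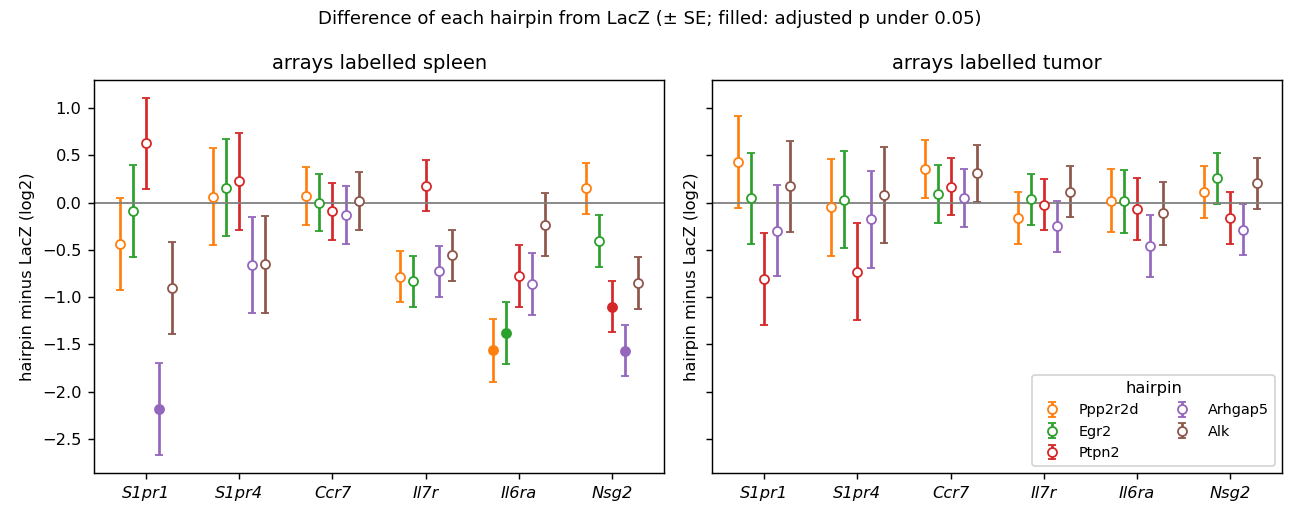
Difference of each hairpin from LacZ (log2, ± SE, 3 arrays a group) on arrays labelled spleen (left) and labelled tumor (right), filled where the limma adjusted p is under 0.05. The 5 filled points are all labelled spleen, from -2.19 for S1pr1 with Arhgap5 to -1.10 for Nsg2 with Ptpn2, and values labelled tumor lie between -0.81 and 0.43.

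Because every hairpin comparison leans on the same LacZ arrays, each hairpin was also set against the mean of the other 4 under the same label. On arrays labelled spleen 5 of 30 tests passed in limma. Nsg2 was higher with Ppp2r2d by 1.13 ± 0.22 (adjusted p = 0.000948, 2.45% of all genes called higher) and lower with Arhgap5, at -1.02 (adjusted p = 0.00956, 0.676% called lower). S1pr1 was also lower with Arhgap5, at -1.98 ± 0.38 (adjusted p = 0.00396). Both genes set the Arhgap5 hairpin apart from LacZ and from the other hairpins, although the Nsg2 call was lost on leaving out any Arhgap5 array (adjusted p 0.0772 to 0.102) and the S1pr1 call without Arhgap5 array 2 (-1.64, 0.113). With Ptpn2, S1pr1 at 0.61, 1.47 and 0.76 was higher than the other hairpins by 1.53 (0.0399) and Il7r at 5.45, 5.34 and 5.67 by 0.91 (0.0251), where 0.423% of genes were called higher. Leaving out any Ptpn2 array labelled spleen ended both of these calls, and the S1pr1 call also ended without 7 single arrays of the other hairpins. Egr2 and Alk had no called gene among the 6, with 0.28% and 1.34% of all genes called. Il6ra was not called with Ppp2r2d (-0.75) or Alk (0.91). It was called after cyclic loess (limma adjusted p = 0.0497 and 0.0277) and quantile normalization (0.0281 and 0.0206), and stayed uncalled in 20 and 19 of 24 alternatives. Calls in the higher direction were 58.4% of those in Ppp2r2d and 79.5% in Alk on the deposited scale, and 50.7% and 65.5% after quantile normalization.

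On arrays labelled tumor 0 of 30 of these tests passed, and 1 had an unadjusted p under 0.05, S1pr1 in Ptpn2 at -0.90 (limma adjusted p = 0.156), which turned to 0.12 without array 1. The shares of all genes called were 30.4% in Ppp2r2d, 0.055% in Egr2, 4.56% in Ptpn2, 0.753% in Arhgap5 and 0.412% in Alk. Scaling moved these sets: of the Ppp2r2d calls 25.2% were higher as deposited and 52.1% after quantile normalization, of the Arhgap5 calls 7.3% and 21.2%, and of the Alk calls 69.3% and 54.4%.

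Whether the label difference itself changed with a hairpin was tested as an interaction, the hairpin's difference minus that of LacZ. Of 30 tests 1 passed, Nsg2 in Alk at 1.06 ± 0.39 (SE, limma adjusted p = 0.043), in a comparison where 23.1% of all genes were called higher. The shares called in either direction were 0.786% in Ppp2r2d, 0% in Egr2, 17.3% in Ptpn2 and 2.82% in Arhgap5. The Nsg2 interactions in Arhgap5 and Ptpn2 were 1.28 and 0.94 and missed the threshold (0.0624 and 0.0772), while the second probe set gave 2.29 (0.00871) and 1.26 (0.0454) and, in Alk, 1.67 (0.0143). Both were called after cyclic loess (1.21, 0.00608 and 0.96, 0.0348) and quantile normalization (1.44, 0.000182 and 1.06, 0.00572). In all, 8 of 22 alternatives called the first and 5 of 23 the second. Il6ra in Ppp2r2d, at 1.59 (0.128), was called in 4 of 22 alternatives, among them quantile normalization (1.58, 0.0148) but not cyclic loess. In S1pr1 the interaction was 1.89 in Arhgap5 (0.118) and -1.44 in Ptpn2 (0.126), the latter -0.41 without Ptpn2 array 1 labelled tumor and called without array 2 (-1.81, 0.0427). The median of all genes in these comparisons was 0.21 to 0.46 as deposited and -0.02 to 0.01 after quantile normalization. Of the genes called, 91.2% in Alk, 87.2% in Ptpn2 and 70.8% in Arhgap5 were higher as deposited, against 39.3%, 46.1% and 36.9% after quantile normalization. The Nsg2 call in Alk ended on leaving out any of 9 of the 12 LacZ and Alk arrays, with adjusted p from 0.0525 to 0.13, and after cyclic loess (0.77, 0.0751). In all, 8 of the 30 had an unadjusted p under 0.05.

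The pathways around the 6 genes were described through lists chosen with earlier results known, by the mean difference over the 6 transductions, in which 37.6% of all genes were called higher and 33.1% lower. Among the called genes of these lists 8 changed sign under quantile or cyclic loess scaling (Sphk2, Ccr4, Il9r, Il15ra, Il21r, Stat5b, Jak2 and Adam17), and the called genes given values in the following did not. Of the 14 measured genes of S1P signalling, 8 were called higher and 4 lower, with a median of 0.48 against 0.13 for all genes. Klf2, a transcription factor known to switch on S1pr1, rose in all 6 transductions with a mean of 2.45 ± 0.14 (limma adjusted p = 2.51e-16). Its arrays ran from 3.24 through 3.51 to 4.71 labelled spleen and from 5.34 through 5.97 to 7.10 labelled tumor. Cd69, whose protein pulls S1PR1 from the cell surface, rose too, by 0.91, and was called in 4 of 6 transductions. The receptor S1pr5 rose by 1.11 (4 of 6) from levels far below the array median, and S1pr2 fell by 0.79 in the mean (3 of 6). Sgpl1, the lyase that breaks S1P down, fell by 0.73 (4 of 6).

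Of 18 measured lymph node entry and chemokine receptor genes 8 were called higher and 6 lower (median 0.10). Ccr9, a gut-homing receptor (2.53), Gpr183, an oxysterol receptor that positions lymphocytes (1.93), Itgb7, an integrin chain of gut homing (1.70), and Cxcr5, the follicle receptor (1.48), rose in all 6 transductions. Cxcr6 fell by 3.21 and Ccr8 by 2.11 in all 6, and Ccr6 (-1.84) and Cx3cr1 (-2.00) were lower in 5 of 6. The macrophage genes listed earlier fell on the same arrays, and most of the B cell genes rose. Cx3cr1 is also a macrophage gene, and the part of these other cells was not tested. Ccr7 is thus flat in a family with members called in both directions.

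Among 18 gamma chain cytokine receptor genes, 8 were called higher and 9 lower (median -0.03), the latter 4 after quantile normalization and 5 after cyclic loess. Beside Il7r, the receptor chain Il4ra rose by 1.38 and the kinase Jak1 by 0.92 in all 6 transductions, and Bcl2, a survival gene downstream of IL-7, by 1.15 in 5. Il2ra, the IL-2 receptor alpha chain that activated T cells display, fell by 3.77 in all 6, from a median of 4.96 to 1.30, without overlap.

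Of 15 IL-6 family genes 7 were called higher and 5 lower (median 0.32), the latter 3 under either scaling. Il6st, which encodes gp130, the signalling partner of Il6ra, rose by 1.55 and in 5 of 6 transductions. Socs3, a feedback inhibitor of gp130 signalling, rose by 2.23 in all 6, from 2.02 to 3.58 labelled spleen and 4.31 to 5.73 labelled tumor. Adam10, a protease that can cut the receptor from the surface, was lower at -0.46. In the small Nsg family Nsg1 rose by 0.51 and Caly was not called at 0.34 (0.0941).

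Of 15 quiescence and memory transcription factors 10 were called higher and 1 lower (median 0.41). Klf3 gave 5.07 ± 0.13, a larger difference than any of the 6 genes, and Eomes, a factor of memory CD8 T cells, 1.70, both in all 6 transductions and without overlap. Lef1 rose by 0.56 and was called in 4, while Foxo1, known to switch on Il7r, Klf2 and Ccr7, was not called at 0.41 (limma adjusted p = 0.0788). This rested on the scale: Foxo1 was called at 0.76 after quantile normalization (0.00038) and 0.68 after cyclic loess (0.00145), as were Foxo3 (0.36 as deposited, 0.71 and 0.64) and Bach2 (0.21, 0.59 and 0.53), so that 13 of the 15 were called higher under either scaling. Gfi1, which represses Il7r in T cells, fell by 0.78. Of 14 effector transcription factors 13 were lower and 1 higher (median -0.91), the former 11 after quantile normalization and 10 after cyclic loess. Zeb2 fell by 4.67, Prdm1, which encodes Blimp-1, by 3.58, Rbpj by 2.08, Tox by 1.63 and Egr3 by 1.49 in all 6 transductions. Nr4a1 was the 1 gene of that list that rose, by 0.74.

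**Figure D4:**
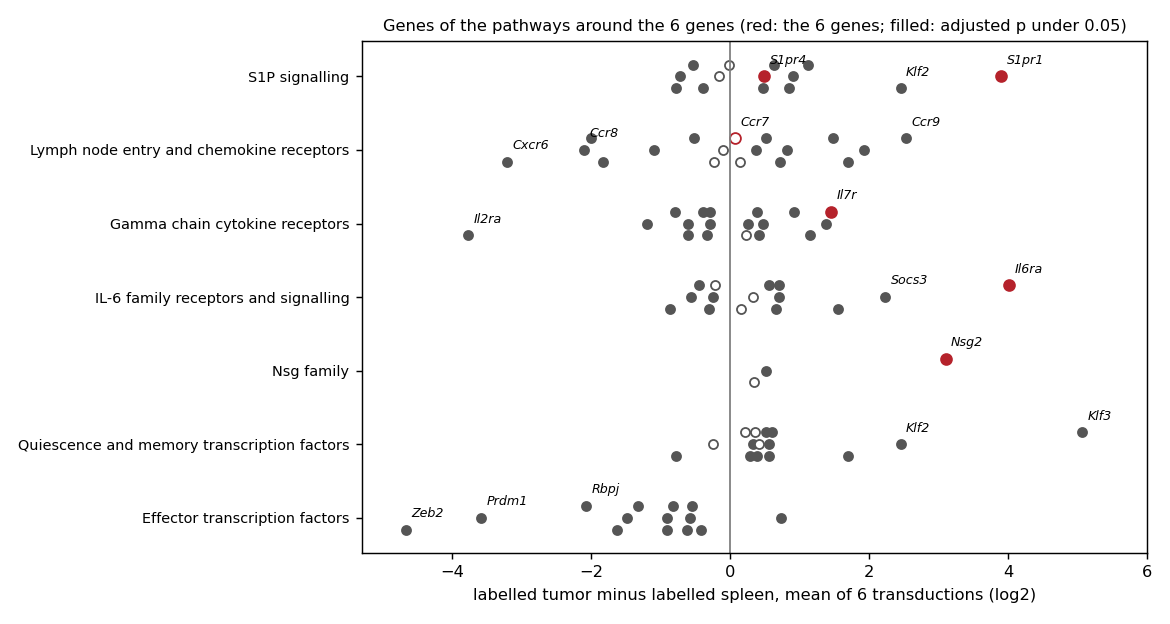
Mean difference labelled tumor minus labelled spleen over 6 transductions (log2) for each measured gene of 7 lists, filled where the limma adjusted p is under 0.05 and red for the 6 genes. S1pr1 (3.90), Il6ra (4.01) and Nsg2 (3.10) lie at the right end of their lists, Ccr7 at 0.06 near the middle of its own, and the effector factors lie mostly left of 0.

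On arrays labelled spleen some genes of the lists were called in the comparisons with LacZ. Of all 18193 genes, 1118 were called higher in Ppp2r2d, 290 in Egr2, 614 in Ptpn2, 551 in Arhgap5 and 661 in Alk. The list values against LacZ are on the deposited scale, and other scalings were not tested for them. With Arhgap5, where S1pr1 and Nsg2 fell, Klf3 (-1.10), Eomes (-1.01), Satb1 (-0.98) and Itgb7 (-1.14) fell as well (limma adjusted p 0.0131 to 0.0328). With Ppp2r2d, where Il6ra fell, Klf3 fell by 2.15 (5.49e-05), the IL-6 receptor protease Adam10 by 1.35 and the STAT5 target Cish by 2.13, while Gpr183 rose by 1.41 and Ccr8 by 2.05. With Ptpn2, where Nsg2 fell, Ccr6 fell by 2.98, and Ccr2 rose by 1.49 and Cx3cr1 by 1.13. With Alk, S1pr3 (-1.30) and Il2rb (-0.91) fell, and with Egr2 Ccr2 rose by 1.04 beside the fall of Il6ra. S1pr3 labelled spleen ran from -3.09 to -0.71, under every array median. LacZ array 2 labelled spleen had a lowest value of -1.45, against -3.59 and -4.10 on LacZ arrays 1 and 3. Its part in calls of genes this low was not tested. Il7, the ligand of Il7r, was called lower with Ppp2r2d, Egr2, Ptpn2 and Arhgap5 (-2.10 to -1.70) at a median level labelled spleen of -3.05, under every array median. Labelled tumor, Ptpn2 was the hairpin with called genes in these lists: S1pr5 (1.78), Cxcr6 (2.41), Ccr2 (2.08) and Cx3cr1 (2.72) rose. That group holds array 1, which stood apart, and array 3, whose lowest value of -1.38 was unusually high. The part of these arrays in the calls was not tested. S1pr5 had a median labelled tumor of -1.61, under every array median. The macrophage and myeloid mean labelled tumor was -1.07 in Ptpn2 and -1.45 in LacZ, and its part was not tested.

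The genes whose levels followed each of the 6 most closely were found by Pearson's r over the 36 arrays among 16329 genes of known symbol, as a description without a test, since all share the arrays and the contrast between labels. Nsg2 was nearest to Tdrp (r = 0.982), Cacna2d4 and Pou6f1, and Il6ra to Mylip (0.973), Tmem86b and Galnt10. S1pr1 was nearest to Rtn4rl1 (0.952), Armc7 and Slc12a7, and Il7r to Kmt5b (0.952), Tnfaip3 and Cmah. Mylip encodes a ubiquitin ligase that targets the LDL receptor, and Tnfaip3 encodes A20, a brake on NF-kB signalling. S1pr4 was nearest to Kat6a (0.926), Cd2 and Foxo1, genes that, like S1pr4, had their lowest value on Ptpn2 array 1 labelled tumor (1.80, 3.18 and 1.76). Ccr7 had the loosest neighbours, Dbf4 (0.774), Smarce1 and Ubxn4.

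With the mean of each label's 18 arrays subtracted, the neighbours changed for most genes. Nsg2 was then nearest to Eomes (0.810), with Tdrp (0.806) and Cacna2d4 (0.800) next, so that 2 of its 3 neighbours were kept. Il7r was nearest to Dtx3l (0.786), Chaserr and Kmt5b, Il6ra to Spsb1 (0.702), Rxra and Sgk3, S1pr1 to Bex3 (0.854), Cyld (0.811) and Hsdl1 (0.780), and Ccr7 to Smarca5 (0.839), Gak and Sdf4. S1pr4 kept Kat6a (0.922) and Cd2, with Tacc1 between them. The neighbours of S1pr1 and S1pr4 here had their lowest value on Ptpn2 array 1 labelled tumor, the array where S1pr1 was lowest among those labelled tumor. Over the 35 other arrays, an alternative added after seeing the data, r was 0.795 for Bex3, 0.717 for Cyld and 0.661 for Hsdl1, and for S1pr4 0.769 with Kat6a, 0.722 with Tacc1 and 0.714 with Cd2. On subtracting the label means over all 36 arrays, the r of the nearest gene fell most for Il6ra, from 0.973 with Mylip to 0.702 with Spsb1.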

How the data were processed

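The authors deposited log2 values per probe set of Affymetrix arrays, made with RMA (background correction, normalization and probe set summary) per the submitters' processing notes. For its version, the centring and a genome build: not given in the sources used here. Of 45101 probe sets, 34945 had 1 gene symbol in GEO's platform annotation, 932 several, 9160 none and 64 were controls. Symbols were updated through RefSeq for 18145 of 18193 genes, each read by its brightest probe set. No filter was applied.

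Differences were tested in R 4.3.3 with limma 3.58.1 (lmFit, contrasts.fit, eBayes), with the data.table package, version 1.17.8, over all 36 arrays in 12 groups, with 24 residual degrees of freedom, two-sided, with Benjamini-Hochberg adjustment over 18193 genes in each of 32 comparisons and a threshold of 0.05. Errors are the fit's SE, intervals are 95%, and 3 arrays a group limit the precision. Figures used Python 3.11.15 and matplotlib 3.10.9.

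The 6 genes and all gene lists were chosen with earlier results of these data known. Of each pathway list the text names up to 4 genes in each direction, those called in most transductions and then by size, and up to 3 called genes per hairpin comparison; Car1, Car2, Hba-a1, Cd69, Lef1, Foxo1, Foxo3, Bach2, Gfi1, Adam10, Nr4a1, Tox, Egr3 and Caly were named after their values were seen where they fell outside that rule. The 3 nearest genes by Pearson's r are named for each of the 6. Of 182 list genes 165 were measured. Alternatives were the mean of all probe sets, each other probe set, cyclic loess, quantile normalization, a filter on low values, the compared groups alone, array weights, a replicate block, an added minimum difference of 1 and arrays left out. The fit was tested on simulated data with 18193 genes: for LacZ labelled tumor against labelled spleen it recovered 0, 11, 47 and 50 of 50 genes at log2 differences of 0.5, 1, 2 and 4, with 6 false calls. For Arhgap5 against LacZ labelled spleen it recovered 0, 12, 42 and 50, with 10 false calls. For the Alk interaction it recovered 0, 2, 29 and 48, with 4. The simulations changed 50 genes at each size, far fewer than the label comparisons called, so recovery there may differ.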

Additional observations from a re-analysis of the deposited data

Results flagged for a closer look

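The difference in Nsg2 between arrays labelled tumor and labelled spleen was larger in the Alk transduction than in LacZ, 3.51 against 2.45 on the log2 scale. The interaction was 1.06 ± 0.39 (SE, limma adjusted p = 0.043), which put it on the list because the same contrast differed between a hairpin and its control by a test of that difference. In that comparison 23.1% of all genes were called higher. The call ended on leaving out any of 9 single arrays (limma adjusted p 0.0525 to 0.13), after cyclic loess (0.0751) and in the compared groups alone (0.0944). A replicate block (0.0768) and the filter on low values (0.0812) also ended it. The call held after quantile normalization and in the second probe set. All 3 Alk arrays labelled spleen, at 3.46, 3.11 and 3.03, were below the 3 LacZ arrays, at 4.26, 4.27 and 3.63. The macrophage and myeloid mean labelled spleen was 3.74 in Alk and 1.82 in LacZ, and its part in the result was not tested.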

How the results depend on the processing

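Calls between the labels changed little: 25 of 36 over all arrays and 24 to 26 on leaving out single arrays, and for the mean of 6 transductions 5 and 4 to 5. Counts against LacZ (5) were 10 after cyclic loess, 13 after quantile normalization, 2 in fits of the compared groups alone, 14 with array weights and 4 to 9 without single arrays. Counts against the other 4 hairpins (5) were 8 after either scaling, 12 with array weights, 10 without the 3 arrays with high lowest values and 2 to 7 without single arrays, the 2 being without Arhgap5 array 2 labelled spleen. Interaction counts (1) were 3 with the mean of probe sets, 2 after cyclic loess, 4 after quantile normalization, 0 in the compared groups alone, 8 with array weights, 3 without Ptpn2 array 1 labelled tumor, 3 without the 3 arrays and 0 to 3 without single arrays. The array weights stopped short of their convergence tolerance.

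Replicate numbers showed no steady pairing of the arrays. Same-numbered arrays of a transduction correlated at -0.24 to 0.24 in their deviations, above 0.1 in 4 of 18 pairs. Same-numbered LacZ and hairpin arrays correlated at -0.27 to 0.17 labelled spleen, above 0.1 in 3 of 15 pairs. Labelled tumor these ran from -0.59 to 0.52, above 0.1 in 6 of 15. With the number as a replicate block within a label, 3 calls against the other 4 hairpins were left. With it as a block within a transduction, 0 interactions were left.

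Signs turned for small differences. S1pr1 in Ptpn2 against the other hairpins labelled tumor was -1.55 to 0.12 without single arrays, 0.12 being without Ptpn2 array 1. S1pr4 between labels in Ptpn2 was 0.15 after cyclic loess, 0.0695 after quantile normalization, 0.0097 with array weights, 0.75 without array 1 and -1.14 to 0.75 without single arrays. Ccr7 between labels in LacZ was 0.45 after cyclic loess, 0.36 after quantile normalization, 0.17 with array weights, 0.0762 without the 3 arrays and -0.43 to 0.21 without single arrays. Without single arrays Ccr7 was -0.45 to 0.33 in Egr2, -0.10 to 0.28 in Ptpn2, -0.0039 to 0.17 in Arhgap5 and -0.0056 to 0.12 in the mean. Without the 3 arrays it was -0.10 in Ptpn2 and -0.0135 in the mean. Apart from the effect of fewer arrays or genes, the cause was not tested. Signal near background limits Il7, S1pr3, S1pr5, S1pr1 in Arhgap5, Alk and in part Ppp2r2d labelled spleen, and the second Il6ra and Nsg2 probe sets.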
